A study of Mus musculus with 8 samples.

Results

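Genes that encode chromatin remodelers and histone modifiers were examined in single endocardium cells of the mouse embryo. Names were taken by symbol: those beginning with *Smarc*, *Hdac*, *Kdm* or *Dnmt*, or with *Chd* and a digit, and *Arid1a*, *Arid1b*, *Arid2*, *Ezh1*, *Ezh2*, *Suz12*, *Eed*, *Rnf2*, *Bmi1*, *Ring1*, *Tet1*, *Tet2*, *Tet3*, *Ep300*, *Crebbp* and *Phf3*. The array held 76 such names, and 75 of them had a probe usable in every cell, among 35526 gene names in all. Of these 75 members, 71 were genes and 4 were antisense or pseudogene names (*Chd3os*, *Dnmt3aos*, *Dnmt3bos* and *Smarca5-ps*). Where a member had more than 1 probe, the one with the highest mean signal over the 8 arrays stands for it.

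The study compared endocardium, the endothelial lining of the heart, with and without *Sox17*, which encodes a transcription factor of the SOX family. Each of 8 one-colour Agilent arrays received labelled RNA made in vitro from the PCR-amplified cDNA of 1 cell. There were 4 WT cells (genotype Mesp1+/+_Sox17flox/flox) and 4 KO cells (Mesp1Cre/+_Sox17flox/flox), all at E8.5 with 9 somites and taken from the heart tube. Thus both genotypes carried the floxed *Sox17* alleles, and the KO also carried Cre at 1 *Mesp1* allele. *Mesp1* is expressed in nascent mesoderm, so that Cre acts in mesodermal derivatives and not in endocardium alone. No cells with Cre and intact *Sox17* alleles were among the 8. Embryos were genotyped from tail tissue, and cells had been picked as endocardium by marker genes according to the study's methods. No label names the embryo of each cell, so a genotype counted as 1 sample, and no test was made.

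Values are log2 of the scaled intensity, with low intensities set to a floor of 50, which is 5.64 on the log2 scale. A cell at the floor may still have a signal, since a probe can be well above background, as called by the scanner software, and lie under the floor. Differences are mean log2 values of KO minus WT cells, and the SD is the one between cells, pooled over both genotypes. Whether a member was found in a cell, that is, well above background, is likewise given for its brightest probe. A member was counted as apart when its means differed at least 5-fold. Levels of different probes cannot be compared, so each probe was set only against itself in other cells.

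The scanner software called 11370 to 18175 of 55295 probes well above background in a cell, fewest in WT cell 1. *Sox17* itself was well above background in 0 of 8 cells, so its level gave no check of the genotypes. The 4 WT and 4 KO arrays lay in separate columns of 1 slide and were read in 1 scan, so genotype and position on the slide cannot be told apart. Endocardial markers were well above background for 7 to 10 of 10 genes in WT and 6 to 9 in KO cells, with *Cdh5* and *Kdr* above the floor in all 8 cells. The others were not, and *Emcn* was above it in WT cell 4 and KO cells 1 to 3 and *Npr3* in WT cells 1 and 3 alone. Cardiomyocyte markers were also found, 4 to 8 of 9 genes in WT and 3 to 7 in KO cells, and 2 of 3 smooth muscle markers in every cell. The summed signal of the cardiomyocyte list above the floor ran from 132 to 45979 in WT and from 809 to 48492 in KO cells. *Myh6* was at the floor in all 8 cells. Of 5 blood markers none passed the floor in any cell, and 5 endoderm markers were well above background in none. The part of other cells' RNA in the values below was not tested.

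Chromatin remodelers use ATP to slide, evict or exchange nucleosomes, and fall into the SWI/SNF, ISWI, CHD and related families. Histone modifiers add or remove acetyl, methyl and ubiquitin groups, and DNA methyltransferases and TET enzymes set and oxidize cytosine methylation. In the developing heart, the SWI/SNF ATPase BRG1 and several HDACs are known to act in both the myocardium and the endocardium.

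Probes of members that set the genotypes apart, or that show how firmly a gene name holds, are given first. The array's probes are 60 bases long, and the first 30 bases of each are printed with the position of the whole probe on mm9. No letters are capitalised, since no motif was sought in probes.

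*Phf3*, whose cells separated by genotype with KO below (chr1:30860016-30860075, minus strand): tggctcttcagaaacttgaatacttaagct
*Chd4*, whose cells separated with KO above (chr6:125080458-125080517, plus strand): gcatctttttaataccaggaacccagcggc
*Smarca5*, found in WT cells only (chr8:83223865-83223924, minus strand): ggtacataagcagttctccatttttctaag
*Chd7*, found in WT cells only (chr4:8793852-8793911, plus strand): gtcctactgtttacactcacagttaatgtt
*Kdm2a*, found in every WT and no KO cell (chr19:4318137-4318196, minus strand): tccaggtgggggaaacagaagactggttga
*Arid2*, found in KO cells only (chr15:96235327-96235386, plus strand): ccaagccacacatgaaaacttgtctcatta
*Smarce1* first probe (chr11:99070435-99070494, minus strand): gtcttagagactagaaacaagatagtttgt
*Smarce1* second probe, annotated elsewhere (chr5:147387676-147387735, plus strand): ccagaagacgagaagaaggagtaaatgttg
*Hdac1* brightest probe (chr17:78892801-78892860, plus strand): gtggaggttgatagcctagcttcctttttg
*Hdac1* second probe, annotated elsewhere (chr4:129193527-129193586, minus strand): tgttaaactttttaggaggggtctgggtct

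Most members were found in some cells and not in others. Of 75 members, 61 (81.3%) were well above background in at least 1 cell, against 57.1% of all gene names. Only 13 (17.3%) were well above background in all 8 cells, against 17.6% of all gene names. Among those found in at least 1 cell, this was 21.3% of members and 30.8% of gene names. A further 48 members were found in 1 to 7 cells, a count not made over all gene names. Those found in all 8 were *Smarca4*, *Smarcb1*, *Smarcc1*, *Chd4*, *Hdac5*, *Hdac6*, *Hdac7*, *Crebbp*, *Kdm5c*, *Kdm8*, *Dnmt3l*, *Tet1* and *Tet3*. The 14 found in no cell were *Arid1b*, *Smarcd3*, *Chd1*, *Chd5*, *Chd6*, *Hdac11*, *Ep300*, *Kdm1b*, *Kdm4d*, *Kdm5d*, *Kdm7a*, *Bmi1*, *Dnmt3a* and *Chd3os*. Thus the acetyltransferase *Crebbp* was found in every cell and its paralog *Ep300* in none, each through 1 probe. Above the floor, 54 members were seen in at least 1 cell and 8 in all 8 cells, counts that were likewise not made over all gene names.

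**Figure D1:**
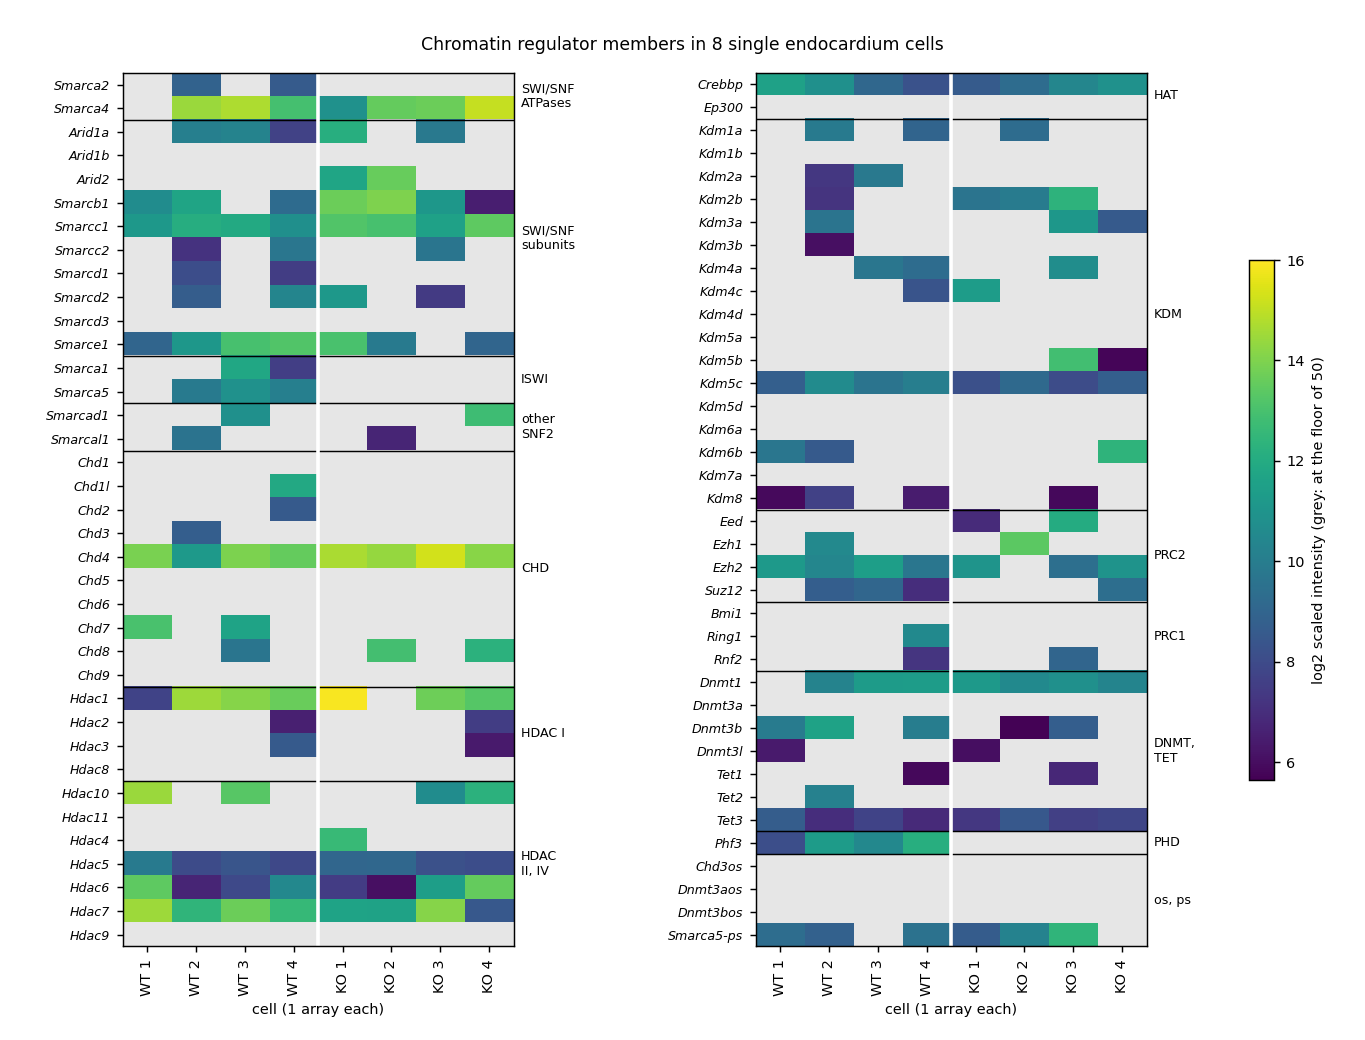
Log2 scaled intensity of the 75 members (rows, grouped by role) in 4 WT and 4 KO cells (columns, 1 array each); grey marks cells at the floor of 50. Only 8 members were above the floor in all 8 cells, and most were at the floor in at least 1 cell of each genotype.

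The number of members found varied more among WT than among KO cells. WT cells 1 to 4 had 25, 42, 31 and 45 members, and KO cells 1 to 4 had 27, 27, 37 and 32. The means were 35.8 ± 9.36 (SD, n = 4 cells) and 30.8 ± 4.79, and the genotypes overlapped. As a share of the 75 members this was 33.3% to 60% in WT and 36% to 49.3% in KO cells. All gene names on the array were found at 25.5% to 39.9% in WT and 28.8% to 37.2% in KO cells. The share of members was 1.29 to 1.54 times that of all gene names in WT cells and 1.14 to 1.33 times in KO cells. Hence the members were found more often than the average gene name in each of the 8 cells.

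**Figure D2:**
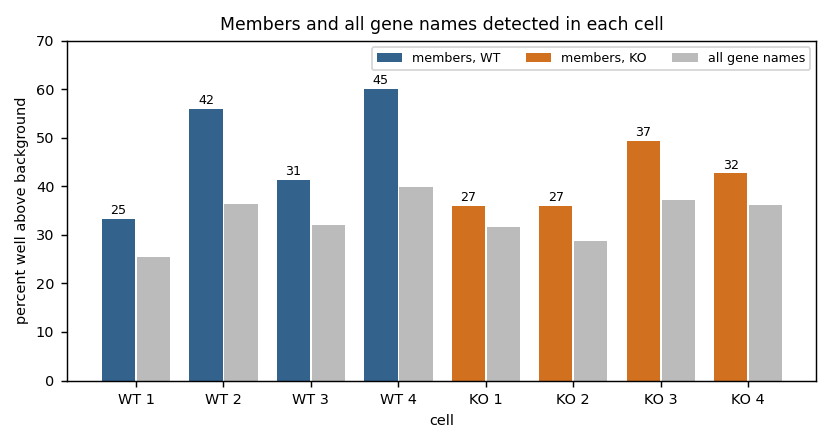
Percent of members (coloured bars, number of members above each) and of all gene names (grey bars) well above background in each cell. The coloured bar was the higher one in every cell, with WT cell 4 highest (45 members) and WT cell 1 lowest (25 members).

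Single cells of the same genotype differed about as much as cells of different genotypes. For 12 pairs of cells of the same genotype, a median of 25.3% of members (14.7% to 28%) were at least 5-fold apart. In the 16 pairs across genotypes it was 26% (17.3% to 33.3%). For all gene names the medians were 10.1% and 10.3%. Names at the floor in both cells cannot be 5-fold apart, which lowers these shares. The genotype means did not differ for 20987 of 35526 gene names and 21 of 75 members. The shares were not made over found names alone, so members and all gene names are not compared by them. Among members above the floor in any cell, the median SD between cells was 1.96 and the median range over 8 cells 5.5 on the log2 scale.

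Between the means, 3 members were at least 5-fold higher in KO cells, where 1.84% of all gene names and 3.23% of those found in at least 1 cell were. These were *Arid2*, *Kdm2b* and *Chd8*. A further 4 were at least 5-fold lower, *Phf3*, *Smarca5*, *Chd7* and *Dnmt3b*, where 1.86% of all gene names and 3.27% of those found were. These counts are 4.92% and 6.56% of the 61 members found. The cells did not overlap for *Chd4*, with KO above, which held for 0.645% of all gene names and 1.13% of those found. They did not overlap for *Phf3*, with KO below, as for 0.144% and 0.252%. By mean, 22 members were higher and 32 lower in KO cells, and 21 were at the floor in all 8 cells. Of all gene names, 8058 were higher and 6481 lower. The median difference over members was 0, as over all gene names. The difference exceeded the SD between cells for 14 members, 4 higher and 10 lower in KO cells. That count was not made over all gene names, so no lean is read from it. With a floor of 200, *Arid2*, *Chd7* and *Phf3* alone stayed past 5-fold. Averaging the probes of a gene could not change *Chd8*, *Chd7*, *Phf3* or *Smarca5*, which had 1 probe each. The members past 5-fold with several probes, *Arid2* (1.17), *Kdm2b* (2.21) and *Dnmt3b* (-1.09), all fell under 5-fold with averaging. Leaving out 1 cell also put *Smarcb1*, *Eed*, *Kdm5b*, *Hdac4*, *Smarca1*, *Smarce1*, *Hdac7* or *Hdac10* past 5-fold, depending on the cell. Just inside the 5-fold line was *Chd8* (2.47), and just outside were *Smarce1* (-2.18), *Smarca1* (-2.02) and *Smarcb1* (2.01).

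**Figure D3:**
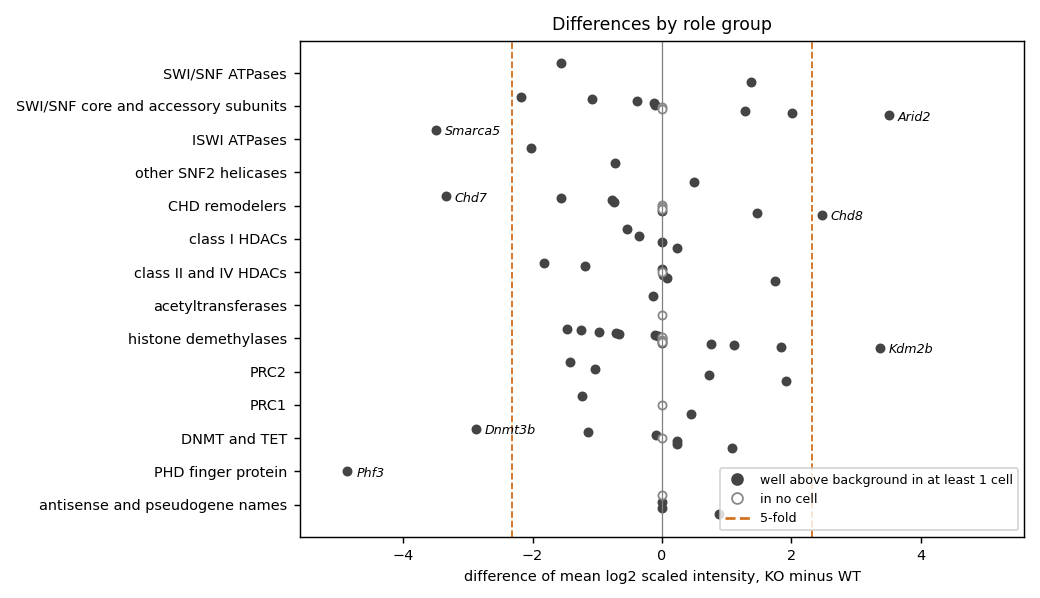
Difference of mean log2 scaled intensity, KO minus WT, for each of the 75 members (points) by role group; open points were well above background in no cell and dashed lines mark 5-fold. The 7 named points lie past 5-fold, with *Phf3* at -4.86 and *Arid2* at 3.51 the farthest on each side.

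**Figure D4:**
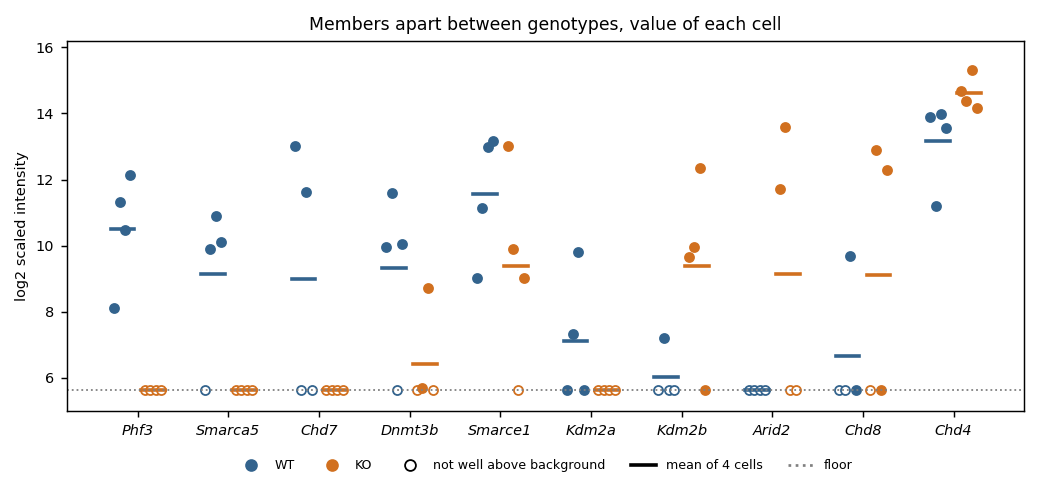
Log2 scaled intensity of 10 members in each WT (blue) and KO (orange) cell; bars are means of 4 cells, open points were not well above background and the dotted line is the floor. KO points all lie below WT points for *Phf3* and all above for *Chd4*, and the genotypes share values for the other 8.

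Members seen in WT cells alone outnumbered those seen in KO cells alone. By their brightest probes, 11 (18%) of the 61 members found were well above background in WT cells only and 5 (8.2%) in KO cells only. Over all gene names found, the shares were 13.5% and 15.3%. Of the 11, *Phf3* and *Kdm2a* were found in all 4 WT cells and no KO cell, as were 0.0676% of all gene names and 0.118% of those found. The *Kdm2a* calls did not follow its signal alone, as given below. No member was found in all 4 KO and no WT cell, against 0.0338% of all gene names and 0.0592% of those found. WT cells 2 and 4 also had the most gene names found of the 4 WT cells, and the part of this depth in the counts was not tested.

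*Phf3* encodes a PHD finger protein that binds the tail of RNA polymerase II. Its log2 levels were 8.11, 11.31, 10.46 and 12.14 in WT cells 1 to 4, and all 4 KO cells were at the floor and not well above background. Every WT cell was therefore above every KO cell, and WT cell 1 was the lowest of them. The KO level was at least 29.1-fold lower, a bound set against the floor of 50, which lay above the lowest signals called well above background in the KO cells. The folds given below for members found in 1 genotype only were set in the same way. In those, cells of the brighter genotype at the floor had been raised to it, so the folds are no lower bounds. The study lists *Phf3* and *Smarce1* from these same cells, so their values are no independent evidence of a direction. The difference was -4.86 (SD 1.23) and depends on the floor, at -7.19 with a floor of 10 and -2.86 with a floor of 200.

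Among ISWI remodelers, which space nucleosomes, both ATPases were seen in WT cells only. *Smarca5*, the SNF2H ATPase, was at 9.90, 10.88 and 10.10 in WT cells 2 to 4 and at the floor in WT cell 1 and all KO cells. The KO was 11.2-fold lower by mean (difference -3.49, SD 1.67). *Smarca1*, the SNF2L ATPase on the X chromosome, was at 11.82 and 7.55 in WT cells 3 and 4 and nowhere else above the floor. For *Smarca1* the KO was 4.06-fold lower by mean. A second *Smarca1* probe was above the floor in the same cells, at 10.52 and 6.44. WT cell 1, at the floor for both genes, thus overlapped with the KO cells. The pseudogene *Smarca5-ps* is a near copy of *Smarca5* and may share its RNA on the array, so both are uncertain. It was at 9.36, 8.86 and 9.56 in WT cells 1, 2 and 4 and at 8.64, 10.23 and 12.41 in KO cells 1 to 3. Its brightest probe was thus high in KO cells in which the *Smarca5* probe was at the floor. Probe 2 of *Smarca5-ps* was above the floor in KO cell 1 alone (8.83), and its probe 3 was found in no cell.

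The SWI/SNF family, which opens chromatin at enhancers and promoters, showed no common direction. Of its 10 core and accessory subunits, 3 were higher and 5 lower in KO cells by mean, and 2 were equal. The catalytic subunit *Smarca4* (BRG1) was well above background in all 8 cells. WT cell 1 was at the floor and WT cells 2 to 4 were at 14.44, 14.71 and 12.93. KO cells 1 to 4 were at 10.88, 13.57, 13.67 and 15.09. The genotypes overlapped widely (difference 1.37, SD 3.26), and a second probe gave -0.92. Without WT cell 1 the first probe gave -0.72, so its direction rested on that cell. *Smarca2* (BRM), the other catalytic subunit, was at 8.92 and 8.61 in WT cells 2 and 4 and at the floor in all others. The KO was 2.95-fold lower by mean.

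*Arid2*, which defines the PBAF form of the complex, was at 11.71 and 13.60 in KO cells 1 and 2, with the remaining 6 cells at the floor. Thus 2 KO cells stood above all WT cells and 2 were level with them. The KO was 11.4-fold higher by mean (difference 3.51, SD 2.91), but 2 further *Arid2* probes were well above background in no cell. Without KO cell 2 the difference was 2.02, under 5-fold. *Arid1a*, which marks the BAF form, was at 10.10, 10.29 and 7.69 in WT cells 2 to 4 and at 12.13 and 9.85 in KO cells 1 and 3, with overlap. A second *Arid1a* probe was above the floor in WT cells 2 and 3 (11.03 and 10.58) and KO cells 2 and 3 (11.00 and 7.34). Both probes were on the same side of the floor in only 5 of 8 cells. *Arid1b* was found in no cell.

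The core subunit *Smarcb1* was at 10.67, 11.69, 5.64 and 9.27 in WT cells and at 13.67, 13.99, 11.11 and 6.53 in KO cells. KO cells 1 and 2 were above all WT cells, and KO cell 4 was below 3 of them (difference 2.01, SD 3.07). The difference was 0.78 without WT cell 3 and 3.61, past 5-fold, without KO cell 4. *Smarcc1* (BAF155), a scaffold subunit, was at 11.17, 12.11, 11.93 and 10.81 in WT and at 13.19, 12.98, 11.57 and 13.45 in KO cells. Only KO cell 3 fell within the WT range, and the difference of 1.29 exceeded the SD of 0.74. A second probe gave 0.94, while 2 dim probes, seen in WT cell 2 alone, gave -0.41 and -0.42. The last of these is annotated on chromosome 14 and the other *Smarcc1* probes on chromosome 9. The mean over all 4 *Smarcc1* probes differed by 0.35.

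*Smarce1* (BAF57), a DNA-binding subunit, was at 9.01, 11.13, 12.99 and 13.17 in WT and at 13.01, 9.90, 5.64 and 9.04 in KO cells. KO cell 1 was as high as WT cells 3 and 4, and KO cell 3 was at the floor (difference -2.18, SD 2.54). Its second probe was at 8.25, 10.25, 11.55 and 11.27 in WT and at 7.01, 9.66, 8.63 and 6.68 in KO cells (difference -2.33, SD 1.45). The probes thus ran apart in KO cells 1 and 3, and the second is annotated on another chromosome than the first. Without KO cell 1 the first probe was past 5-fold, at -3.38, and without KO cell 3 it was at -0.93. It was also past 5-fold with the 75th percentile, the percentile of all probes, quantile normalization and a floor of 10. Of the other subunits, *Smarcd1* was above the floor in WT cells 2 and 4 alone (8.08 and 7.52), and *Smarcc2* and *Smarcd2* overlapped between genotypes.

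Among the SNF2 helicases outside these families, *Smarcad1* was above the floor in WT cell 3 (10.82) and KO cell 4 (12.77) alone. *Smarcal1*, which acts at stalled replication forks, was so in WT cell 2 (9.59) and KO cell 2 (6.70). By their brightest probes, each was thus above the floor in 1 cell of each genotype. Another *Smarcal1* probe was found in every cell, under the floor.

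Most CHD proteins carry chromodomains that bind histone tails. *Chd4*, the ATPase of the NuRD complex, was at 13.90, 11.19, 13.97 and 13.57 in WT cells and at 14.67, 14.38, 15.30 and 14.16 in KO cells. All 4 KO cells were above all 4 WT cells, and the lowest KO cell was close to the highest WT cell. The difference was 1.47 (SD 1.0), and 0.82 without WT cell 2. With the 50th percentile taken over all probes, or with quantile normalization, the genotypes overlapped. Its near relative *Chd3* was above the floor in WT cell 2 only (8.73).

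*Chd7*, which is mutated in CHARGE syndrome, was at 13.01 and 11.63 in WT cells 1 and 3 and nowhere else above the floor. WT cells 2 and 4 therefore did not differ from the KO cells, and the KO was 10.1-fold lower by mean. The difference of -3.34 (SD 2.76) was -2.0 without WT cell 1, under 5-fold. *Chd8*, a related remodeler, was at 9.68 in WT cell 3 and at 12.90 and 12.28 in KO cells 2 and 4, with the other 5 cells at the floor. The difference of 2.47 (SD 3.18) was smaller than the SD. It ran from 1.20 to 3.62 when 1 cell was left out, and was under 5-fold without WT cell 1, 2 or 4 or KO cell 2 or 4, with the percentile of all probes and with normexp background correction. *Chd1l* (11.88) and *Chd2* (8.58) were above the floor in WT cell 4 alone, and *Chd9* was well above background in KO cell 3 but under the floor.

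Histone deacetylases remove acetyl groups and mostly act in repressor complexes. No class I member was past 5-fold. *Hdac1* was at 7.72, 14.49, 14.10 and 13.64 in WT and at 15.89, 5.64, 13.73 and 13.28 in KO cells. WT cell 1 and KO cell 2 stood far below the other 6 cells, and the genotypes overlapped (difference -0.35, SD 3.89). The second probe followed it cell by cell, at 6.49, 13.64, 13.02 and 12.60 in WT and at 14.99, 5.64, 12.51 and 11.99 in KO cells. The annotation places the brightest probe, which gives the *Hdac1* values, on chromosome 17 and the second on chromosome 4. Probe 3, placed on chromosome 18, gave a difference of -0.10 (SD 3.12). Which of these places holds the gene was not tested. *Hdac2* and *Hdac3* were above the floor in WT cell 4 (6.57 and 8.56) and KO cell 4 (7.50 and 6.41) alone. *Hdac8* was under the floor in all 8 cells.

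Some class II members shuttle between nucleus and cytoplasm. *Hdac7*, an HDAC of endothelial cells, was at 14.50, 12.41, 13.65 and 12.57 in WT and at 11.64, 11.60, 14.13 and 8.48 in KO cells. Of the KO cells 3 were below all WT cells, and KO cell 3 was above 3 of them (difference -1.82, SD 1.78). Without KO cell 3 it was -2.71, past 5-fold, and without KO cell 4 it was -0.83. *Hdac5* ran from 7.88 to 9.92 in WT and from 8.10 to 9.11 in KO cells (difference 0.08, SD 0.77).

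*Hdac6*, a tubulin deacetylase on the X chromosome, was at 13.42, 6.72, 7.92 and 10.47 in WT and at 7.50, 6.08, 11.45 and 13.54 in KO cells. Each genotype held high and low cells (SD 3.22). *Hdac10* was at 14.42 and 13.30 in WT cells 1 and 3 and at 10.68 and 12.31 in KO cells 3 and 4, with the other 4 at the floor. Its second probe was above the floor in the same 4 cells, at 13.92, 12.99, 10.09 and 11.91. *Hdac4* was above the floor in KO cell 1 only (12.62).

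**Figure D5:**
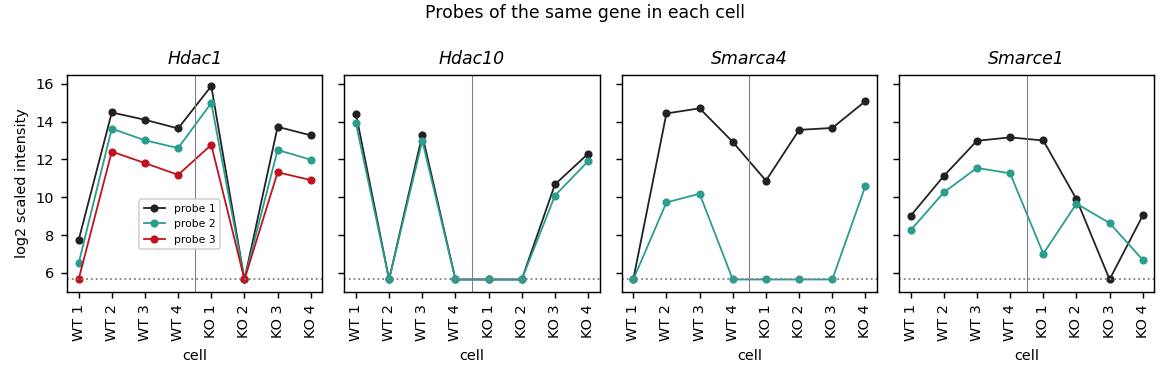
Log2 scaled intensity of each probe (lines, ranked by signal) of *Hdac1*, *Hdac10*, *Smarca4* and *Smarce1* in the 8 cells; the dotted line is the floor. The *Hdac1* and *Hdac10* probes rise and drop in the same cells, and the *Smarca4* and *Smarce1* probes part, as in KO cell 3.

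Probes of a gene measure the same amplified cDNA, so they show which values rest on 1 probe. Of the 75 members 29 had at least 2 usable probes and 46 had 1. Of 19 members with at least 2 probes found in a cell, 3 had probes that went opposite ways by over 1 on the log2 scale: *Dnmt3b*, *Smarca4* and *Smarcc1*. For 18 members with a second probe to compare, the brightest 2 probes were on the same side of the floor in all 8 cells for 6, in 6 or 7 cells for 7 and in fewer for 5. The lowest was *Tet3*, in 0 cells, whose second probe was under the floor throughout.

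The acetyltransferase *Crebbp*, a coactivator, was above the floor in all 8 cells. It was at 11.57, 10.83, 9.11 and 8.27 in WT and at 8.61, 9.30, 10.40 and 10.88 in KO cells, with nearly the same range in both (difference -0.15, SD 1.30).

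Histone demethylases remove methyl groups from lysines. The paralogs *Kdm2a* and *Kdm2b*, which bind unmethylated CpG islands and act on H3 lysine 36, lay on opposite sides. *Kdm2a* was well above background in all 4 WT cells, at 7.32 and 9.81 in cells 2 and 3 and under the floor in cells 1 and 4. It was found in no KO cell, and the KO was 2.75-fold lower by mean (difference -1.46, SD 1.39). Its second probe was found in no cell. Before the floor, the scaled signal called in WT cell 4 (8.86) was under those not called in KO cells 1 and 4 (12.36 and 9.87). The lowest signal called differed by array, at 5.29 in WT cell 4 and 14.56 in KO cell 1. *Kdm2b*, which recruits a form of Polycomb complex 1, was well above background in all 4 KO cells, at 9.64, 9.96 and 12.34 in cells 1 to 3 and under the floor in cell 4. In WT it was found in cell 2 alone, at 7.21. KO cells 1 to 3 were above all WT cells, and KO cell 4 was level with 3 of them. The difference was 3.36 (SD 2.04) and stayed past 5-fold when any 1 cell was left out (2.38 to 4.61). Its second probe differed by 1.06, and the mean over both probes was under 5-fold.

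*Kdm5c*, an H3 lysine 4 demethylase on the X chromosome, was at 8.79, 10.66, 9.65 and 10.09 in WT and at 8.18, 9.17, 8.05 and 8.77 in KO cells. Only WT cell 1 and KO cell 2 crossed, and the difference of -1.25 exceeded the SD of 0.67. A second probe, found in all 8 cells, differed by -0.39 (SD 0.71), less than its SD. Its relative *Kdm5b* was at 12.87 and 5.79 in KO cells 3 and 4 by its brightest probe, which was found in no other cell. A second, dim *Kdm5b* probe was found in every WT and KO cell and differed by 0.06, so the gene was not limited to KO cells. The Y-linked *Kdm5d* was well above background in 0 of 8 cells, as were the Y-linked *Ddx3y*, *Eif2s3y* and *Uty* and the X-linked *Xist*. The sex of the embryos could therefore not be read from these genes. *Kdm6a*, an H3 lysine 27 demethylase of the X chromosome, was found under the floor in WT cell 4 alone. *Kdm6b*, which acts on the same residue, was at 9.69 and 8.58 in WT cells 1 and 2 and at 12.37 in KO cell 4. *Kdm8* was dim, from the floor to 7.66 in WT and to 5.87 in KO cells (difference -0.71, SD 0.64).

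The remaining demethylases overlapped between genotypes. *Kdm1a* (LSD1) was at 9.86 and 8.97 in WT cells 2 and 4 and at 9.28 in KO cell 2. *Kdm3a*, which acts on H3 lysine 9, was at 9.61 in WT cell 2 and at 11.13 and 8.56 in KO cells 3 and 4. *Kdm4a* was at 9.72 and 9.32 in WT cells 3 and 4 and at 10.71 in KO cell 3, and *Kdm4c* was at 8.31 in WT cell 4 and 11.36 in KO cell 1. *Kdm4b* had 1 probe, which was unusable in KO cell 1 and therefore left out of the counts. In the other cells it was at 6.24, 10.65, 11.06 and 5.64 in WT and at 14.74, 5.82 and 9.66 in KO cells 2 to 4, again with overlap.

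Polycomb repressive complex 2 methylates H3 lysine 27. Its main catalytic subunit *Ezh2* was at 11.19, 10.40, 11.45 and 9.70 in WT and at 11.00, 5.64, 9.41 and 10.98 in KO cells. KO cell 2 was at the floor, and the other KO cells lay in or just under the WT range (difference -1.43, SD 1.87). In KO cell 2 the paralog *Ezh1* was at 13.39, and it was at 10.51 in WT cell 2 and at the floor elsewhere, with a second probe above the floor in the same cells (12.97 and 10.10). The scaffold *Suz12* was at 8.75, 9.06 and 7.0 in WT cells 2 to 4 and at 9.37 in KO cell 4. *Eed*, which binds the methylated residue, was at 6.91 and 12.03 in KO cells 1 and 3 and at the floor in the other 6 (difference 1.91, SD 2.15). It was 0.42 without KO cell 3 and 2.55, past 5-fold, without KO cell 2 or KO cell 4. Of the complex 1 ubiquitin ligases, *Ring1* was above the floor in WT cell 4 (10.56) and *Rnf2* in WT cell 4 (7.25) and KO cell 3 (9.04). *Bmi1* was found in no cell.

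The maintenance methyltransferase *Dnmt1* was at the floor in WT cell 1, at 10.27, 11.32 and 11.35 in WT cells 2 to 4 and at 11.21, 10.55, 10.86 and 10.30 in KO cells. Apart from WT cell 1 all values lay close together. The de novo enzyme *Dnmt3b* was at 9.96, 11.60 and 10.05 in WT cells 1, 2 and 4 and at 5.70 and 8.73 in KO cells 2 and 3, with the other 3 cells at the floor. WT cell 3 thus fell among the KO cells, and the difference of -2.88 (SD 2.11) was -2.12 without WT cell 2, under 5-fold, as it was with normexp. A second probe differed by -1.21 and probe 3, above the floor in KO cell 3 alone (8.93), by 0.82. *Dnmt3a* was found in no cell.

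The TET enzymes oxidize methylcytosine. *Tet3* was above the floor in all 8 cells, at 6.90 to 8.70 in WT and 7.31 to 8.51 in KO cells (difference 0.24, SD 0.69). *Tet1* and the regulator *Dnmt3l*, though well above background in all 8 cells, were above the floor in only 1 cell of each genotype. *Tet2* was found in WT cell 2 only, at 10.20.

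Partners of the members were taken from lists of 81 further genes, of which 71 were found in at least 1 cell. At least 5-fold, 4 were higher and 8 lower in KO cells, with a median difference of 0, as over all gene names. The backgrounds were the same 1.84% and 1.86% of all gene names, or 3.23% and 3.27% of those found. The counts were 0 and 0 of 13 SWI/SNF partners, 1 higher and 2 lower of 14 NuRD and Sin3 genes, 0 and 2 of 20 Polycomb partners, 2 and 4 of 22 histone methyltransferases and their cofactors, 1 and 0 of 7 acetyltransferases and 0 and 0 of 5 sirtuins. Only *Rybp*, a subunit of the variant Polycomb complex 1 that also contains the *Kdm2b* product, did not overlap between genotypes, with KO below as for 0.144% of all gene names. It was at 11.69, 9.72, 8.10 and 10.92 in WT cells and at 6.76 in KO cell 3, with the other KO cells at the floor (difference -4.18, SD 1.17). *Kdm2b* and *Rybp* thus differed in opposite directions.

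Since SOX proteins bind the letters ACAAT (or ATTGT on the other strand), these were sought in the 250 bases upstream of RefSeq gene starts (GRCm38.p6). Of 58 members with a window, 11 (19.0%) held them, against 30.9% of 27025 genes. Of the 8 members past 5-fold or without overlap, 5 had a window and 1, *Kdm2b*, held the letters, in 1 of its windows (chr5:122989100-122989349, minus strand). *Kdm2b* had more windows than any of the others and so more places for a match, and 27.7% of all windows held the letters. The *Kdm2b* window is shown because it alone among the windows of these members held the letters, printed in capitals. The match is of letters only and describes no binding.

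*Kdm2b* upstream window: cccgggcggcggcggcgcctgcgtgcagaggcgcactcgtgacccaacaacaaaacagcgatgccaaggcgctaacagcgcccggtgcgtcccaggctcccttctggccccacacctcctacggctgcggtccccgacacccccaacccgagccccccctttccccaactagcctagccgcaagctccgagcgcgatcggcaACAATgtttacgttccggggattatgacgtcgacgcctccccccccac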

How the data were processed

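The files, as the authors deposited them, are scanner output, 1 per array (Agilent Feature Extraction 12.0.2.2, design 028005, probes annotated on mm9). The deposited intensity values were corrected by that software for background and spatial trend on each array but not normalized between arrays, so amplification and labelling can still shift a whole array. The study's methods describe GeneSpring normalization with a floor of 50, the 50th percentile of each chip and the median of each gene, which these values do not carry.

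Control and outlier spots were removed, repeated spots were averaged per probe, and the 386 of 55681 probes lacking a usable spot on some array were dropped. No probe was saturated. A probe counted as found when over 50% of its spots were well above background. Arrays were scaled to the 50th percentile of 7570 probes found on all 8, raised to a floor of 50 and put on the log2 scale, since most probes lay at background. Where all cells of a genotype lacked a call, a fold was set against a limit for each cell. That limit was the highest of the floor, the probe's own signal and the lowest signal called. It was the floor for every such fold printed. The fold is a lower bound only for *Phf3*, whose WT cells were all above the floor. With 1 sample per genotype, no p-value was computed, and the number of arrays limits the precision.

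Members and lists were chosen with earlier results of these data known. Genes were named when past 5-fold, without overlap, found in all 8 cells or in none, largest in their role group, listed by the study, sex-linked or with discordant probes, and partners only when past 5-fold without overlap. Values of other members complete the account and were given after being seen. The alternatives were the 75th percentile, all probes for the percentile, the floor before scaling, quantile normalization, normexp with an offset of 50, a floor of 10 or 200, averaging a gene's probes, a filter on dim probes, another detection flag and leaving out each cell. The steps were tested on simulated data. Promoter and name tables were RefSeq's. Python 3.11.15, numpy 2.4.6, pandas 2.3.3 and matplotlib 3.10.9 were used, with R 4.3.3 and limma 3.58.1 for normexp.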

Additional observations from a re-analysis of the deposited data

Results flagged for a closer look

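The 29 members chosen for naming gave 47 groups of 4 cells with any spread, and in 14 of them 1 cell stood apart, with a gap to its nearest neighbour that filled most of the group's range. Chance marks about 1 in 20 groups where values are not tied. In 12 of the 14, the other 3 cells were tied at the floor, which fixes the gap as the whole range (ratio 1), so that rate does not apply to them. Members outside those 29, such as *Tet2* and *Hdac4*, were not examined in this way. These were WT cells for *Chd8* (cell 3), *Dnmt3l* (cell 1), *Hdac3* (cell 4), *Kdm2b* (cell 2), *Ring1* (cell 4), *Smarcal1* (cell 2) and *Tet1* (cell 4), and KO cells for *Dnmt3l* (cell 1), *Hdac3* (cell 4), *Kdm8* (cell 3), *Smarcal1* (cell 2) and *Tet1* (cell 3), each with a ratio of 1. In the other 2, WT cell 2 lay below the other WT cells for *Chd4* (11.19, ratio 0.856) and KO cell 3 above the other KO cells for *Dnmt3b* (8.73, ratio 0.981).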

How the results depend on the processing

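The members at least 5-fold higher in KO cells (3) were 6 with a floor of 10, and 1 each with a floor of 200, with a gene's probes averaged and with only members found in all 4 cells of a genotype. Those at least 5-fold lower (4) were 10 with a floor of 10, 2 with a floor of 200 and 1 with that filter. Members with KO cells all above (1) were 0 with the percentile of all probes or quantile normalization and 2 with a floor of 10. Those with KO cells all below (1) were 2 with the floor set before scaling. Leaving out 1 cell gave 2 to 6 higher, 4 to 6 lower, 1 to 2 above, 1 to 3 below, a median difference of 0 to 0 and 59 to 61 members found. The 6 higher came without KO cell 4, and the 3 below without WT cell 1 or WT cell 3. The higher count was also 2 without WT cell 4. Without KO cell 2, KO cell 3 or KO cell 4, 2 members lay above or below where 1 had. With a looser detection flag, 69 members were found. Of the genes found in all 8 cells, 6236 in number, the median difference was 0.12 as scaled here, -0.04 at the 75th percentile, 0.10 with the floor first and 0 with all probes or quantile normalization. Of the single-member values, 470 moved by less than the SD between cells or not at all, and 10 moved further. No called value changed sign. The SD was often wide, so that *Smarca4*, at 1.37 and at -0.72 without WT cell 1, counted among the 470. Some settings could not change a value, such as averaging for members with 1 probe. The count therefore does not measure stability. No paired analysis was possible because no test was made and the replicate numbers only name cells. The cause of these changes was not tested. The 5-fold counts rest on members at or near the floor, where arrays cannot order cells.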
